A study of Mus musculus with 180 samples.

Results

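AMG-208, Capmatinib, MK-2461 and SGX-523 are the 4 clinical kinase inhibitors (CKIs) of the series whose designated target is the receptor tyrosine kinase MET, and their 12 samples were taken from the 180 samples of the series by treatment label. The series holds poly(A) RNA-seq of bone marrow-derived macrophages (BMDMs). Cells were exposed to a single CKI, of 58 in all, or to DMSO as the vehicle for 1 h before a further 2 h with LPS at 10 ng/ml. Each CKI had 3 samples, labelled as replicates 1 to 3, and DMSO had 6, labelled as 2 sets of 3. All groups, controls included, were LPS-stimulated macrophages of male wild-type C57/BL6 mice 6 to 8 weeks old, so no comparison shows the response to LPS itself. Every inhibitor was compared with the 6 DMSO samples and with the other 54 CKIs (162 samples), and the 4 were compared together with the same references. The other CKIs are active compounds and not inert controls. In comparisons with them, standard errors and p-values reflect the spread between replicates and not that between CKIs.

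MET is the receptor of hepatocyte growth factor (HGF). Binding of HGF brings receptors together, the receptor phosphorylates itself, and adaptors such as GAB1 and GRB2 pass the signal to the RAS-ERK and PI3K-AKT cascades, which drive growth, survival and cell movement. MET is best known in epithelia and their tumours, and cells of mesenchymal origin are the best known source of its ligand. The receptor RON, encoded by Mst1r, is the closest relative of MET and responds to macrophage-stimulating protein, encoded by Mst1.

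The 4 inhibitors were not used at a common dose. Capmatinib was used at about 0.34 nM and AMG-208 at about 28 nM, both set for MET. SGX-523 was used at about 120 nM, set for the oxidoreductase NQO2, and MK-2461 at about 1500 nM, set for the Toll-like receptor kinase IRAK4. Doses of MK-2461 and Capmatinib thus differed by more than 3 orders of magnitude, and the values of the 4 are set side by side here without a test between them.

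Values are the authors' normalized read counts, and differences are log2 fold changes on the log2(value + 1) scale with their standard errors (SE) from a limma fit over all 59 groups. A gene was called when its adjusted p (Benjamini-Hochberg over 12714 genes with a mean of at least 10) was under 0.05. Replicate numbers were shared between groups, and samples with the same number deviated together (except between AMG-208 and DMSO), so a fit with the replicate number as a block is given where it changed a call. Totals of the normalized values ran from 9481416 to 12022715 in the 18 samples, and the number of reads behind them was not known. The macrophage receptor gene Csf1r was between 22949 and 25764 in all 18 samples. The sum of 32 macrophage identity genes varied more, from 154513 to 342627 in DMSO and from 156986 to 390014 in the inhibitor samples. Summed lymphocyte markers were between 3 and 41. The second sample of DMSO set 2 stood farthest from the rest, with a median correlation to the other 17 samples of 0.959 against 0.968 to 0.984 for these, so results are also given without it.

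The genes for the receptor and its ligand were transcribed at low levels in these macrophages, and no inhibitor changed either past the threshold. Met was between 6 and 79 in the 6 DMSO samples (47, 51 and 6 in set 1; 34, 79 and 33 in set 2). It was 59, 56 and 72 with AMG-208, 50, 65 and 46 with Capmatinib, 49, 59 and 16 with MK-2461, and 40, 61 and 58 with SGX-523. All 12 inhibitor samples lay within the DMSO range. The log2 fold change of Met was 0.87 ± 0.33 (SE) with AMG-208, 0.65 ± 0.33 with Capmatinib, 0.11 ± 0.33 with MK-2461 and 0.63 ± 0.33 with SGX-523, with limma adjusted p of 0.999, 0.254, 0.895 and 0.852. Hgf was 54.2 ± 18.6 (SD, n = 6) in DMSO and between 30 and 102 in the 12 inhibitor samples. Mst1r, for the receptor that MK-2461 inhibits most potently, had a DMSO mean of 0.167, and Mst1 one of 1.17. Both were below the level required for testing.

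Per kilobase of transcript, Met stood at 6.26 in DMSO, above 9.77% of the 12714 genes tested, and Hgf at 13.1, above 20.7%. The co-receptor genes Cd44 (1766 per kb) and Plxnb2 (714 per kb) stood above 95.5% and 89.6%. The genes for the proteins that set the other 2 doses were higher than Met: Irak4 stood at 150 per kb and Nqo2 at 107 per kb. Irak4 was 424 ± 35.4 (SD, n = 6) in DMSO and 432 ± 23.6 (SD, n = 3) with MK-2461, a log2 difference of 0.03 ± 0.09. Nqo2 was 432 ± 37.5 in DMSO and 453 ± 85.7 with SGX-523, a log2 difference of 0.06 ± 0.13. Neither differed beyond the spread between samples.

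**Figure D1:**
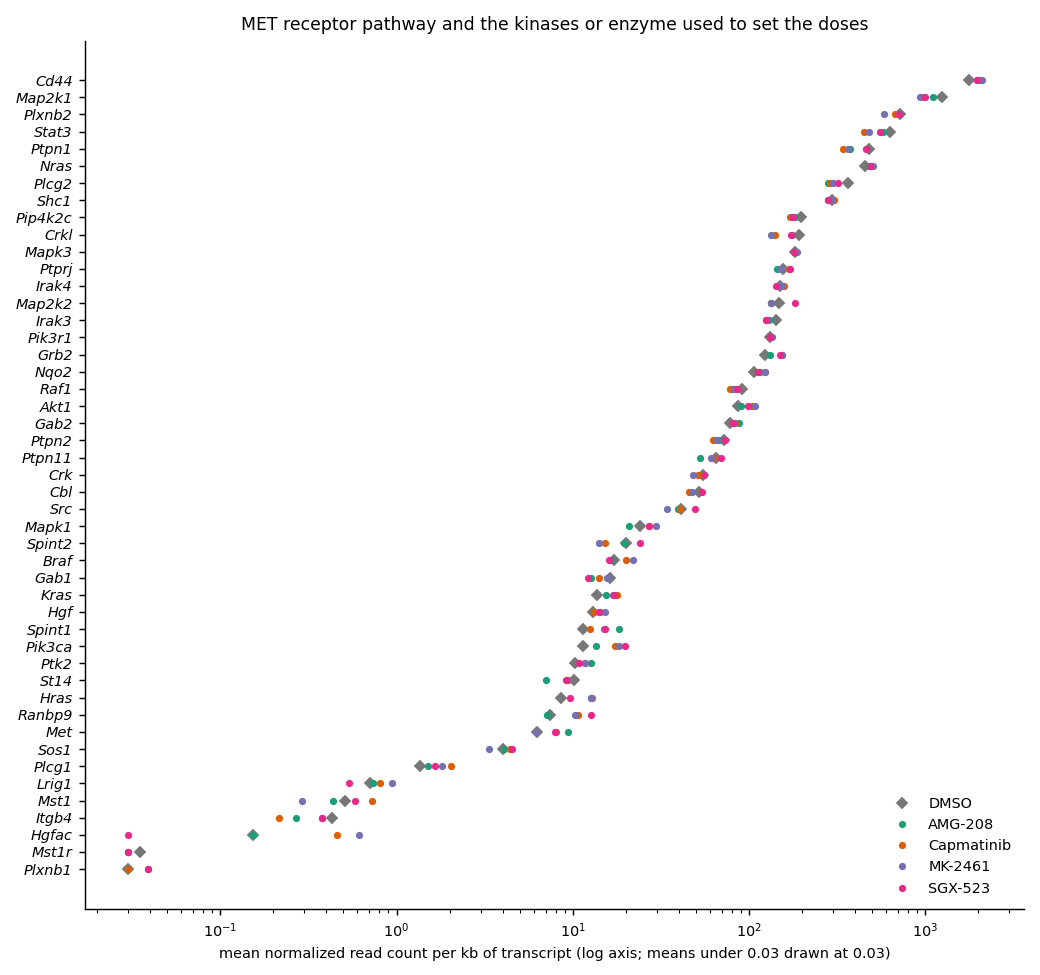
Mean normalized read count per kb of transcript (x axis, log scale, means under 0.03 drawn at 0.03) of the MET receptor pathway and of Irak4, Irak3, Pip4k2c and Nqo2, for DMSO (diamonds, 6 samples) and each inhibitor (circles, 3 samples). Points of a gene lie close together compared with the distance between genes, and Met (6.26 in DMSO) and Hgf (13.1) sit far below Cd44 (1766).

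Of 43 genes listed for the MET receptor pathway, from ligands to phosphatases, 36 were expressed enough to be tested, and 0 were called against DMSO for any inhibitor or for the 4 together. The background share of calls over all genes was 0% for AMG-208 and SGX-523, 0.0236% for Capmatinib and for MK-2461, and 0.0472% for the 4 together. At an unadjusted p under 0.05, 2 of the 36 were higher and 1 lower with AMG-208, 2 and 3 with Capmatinib, 1 and 2 with MK-2461, 2 and 0 with SGX-523, and 5 and 2 with the 4 together. The share of all genes at that level was 2.83%, 19.7%, 14%, 3.93% and 19.1% in the same order. The median log2 fold change of the 36 was 0.001, 0.019, 0.004 and 0.132 in that order of inhibitors, beside 0.032, 0.143, 0.094 and 0.067 over all genes. With the replicate block, Ptpn1, which encodes a phosphatase that acts on MET, fell with Capmatinib (log2 fold change -0.48 ± 0.13, adjusted p = 0.0413), and with the 4 together it fell (-0.33, adjusted p = 0.0387) while Pik3ca, for a catalytic subunit of PI3K, rose (0.62, adjusted p = 0.0331). Without the second sample of DMSO set 2, the blocked adjusted p of Ptpn1 was 0.152 for Capmatinib and 0.252 for the 4 together, and that of Pik3ca was 0.249. Of 20 genes for known targets of the 4 compounds, 11 were tested and 0 were called in any comparison with DMSO, with or without the block.

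AMG-208 and SGX-523 had no called gene against DMSO, with or without the block. At an unadjusted p under 0.05, 360 genes (2.83%) differed with AMG-208 and 500 (3.93%) with SGX-523. The smallest p with AMG-208 belonged to Fosb, a member of the AP-1 family of transcription factors, at a log2 fold change of 1.68 (unadjusted p = 0.000202, adjusted p = 0.999). With SGX-523 it belonged to Tspan33, which encodes a membrane tetraspanin, at 1.74 (unadjusted p = 5.9e-05, adjusted p = 0.751). Tspan33 was between 3 and 8 in DMSO and 31, 16 and 13 with SGX-523, the highest of these in the first sample, whose share of mitochondrially encoded transcripts was also the highest of the 18.

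Capmatinib changed 3 genes past the threshold. Trem1, an activating receptor of myeloid cells, was 57, 52, 45, 54, 25 and 48 in the 6 DMSO samples and 110, 132 and 122 with Capmatinib. All 3 Capmatinib samples lay above all DMSO samples, and the log2 fold change was 1.40 ± 0.29 (adjusted p = 0.0202). Ncs1, which encodes a neuronal calcium sensor, was 37.5 ± 12.2 (SD, n = 6) in DMSO and 69, 112 and 84 with Capmatinib. Its groups did not overlap either, with a log2 fold change of 1.25 ± 0.25 (adjusted p = 0.0202). P2rx4, for an ATP-gated channel, was between 1363 and 1886 in DMSO and 1237, 949 and 1116 with Capmatinib. It fell by 0.50 ± 0.11 on the log2 scale (adjusted p = 0.0358). Against the other 54 CKIs, Trem1 with Capmatinib was at 0.60 ± 0.24, Ncs1 at 0.70 ± 0.21 and P2rx4 at -0.21 ± 0.09, none of them called. No other CKI had a higher mean of Ncs1, whereas 6 had a higher mean of Trem1. Without the second sample of DMSO set 2, 0 genes were called for Capmatinib, and the adjusted p of each of the 3 was 0.234. The count was also 0 without the second or the third Capmatinib sample.

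With the replicate block, 99 genes were called for Capmatinib (0.779%), 86 higher and 13 lower, the 3 above among them. Of the listed genes, 3 of 47 for the cell cycle and replication rose: Tyms, for thymidylate synthase (0.56, adjusted p = 0.00662), Gins2 (0.66, 0.0285) and Mcm3 (0.41, 0.0436), both parts of the replicative helicase. The glycolysis genes Eno1 (0.33) and Ldha (0.34) rose, as did 3 of 35 genes for migration and invasion: Cxcr4 (1.56), a chemokine receptor, Mmp12 (1.17), the macrophage elastase, and Plau (1.15), the urokinase. Irf8, a transcription factor of the macrophage lineage that was between 3680 and 7541 in DMSO, was 1981, 1382 and 2960 with Capmatinib, and fell by 1.23 on the log2 scale (adjusted p = 0.0287 with the block, and 0.142 when the second sample of DMSO set 2 was also left out). Of the 99 genes, 5 were called when the second sample of DMSO set 2 was left out of the blocked fit, and 11 when the mitochondrial share was added to it. Prmt1 (0.55), Gprc5a (1.09), LTO1 (0.75), Tyms and Ncs1 were among both, and Irf8 was in neither.

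**Figure D2:**
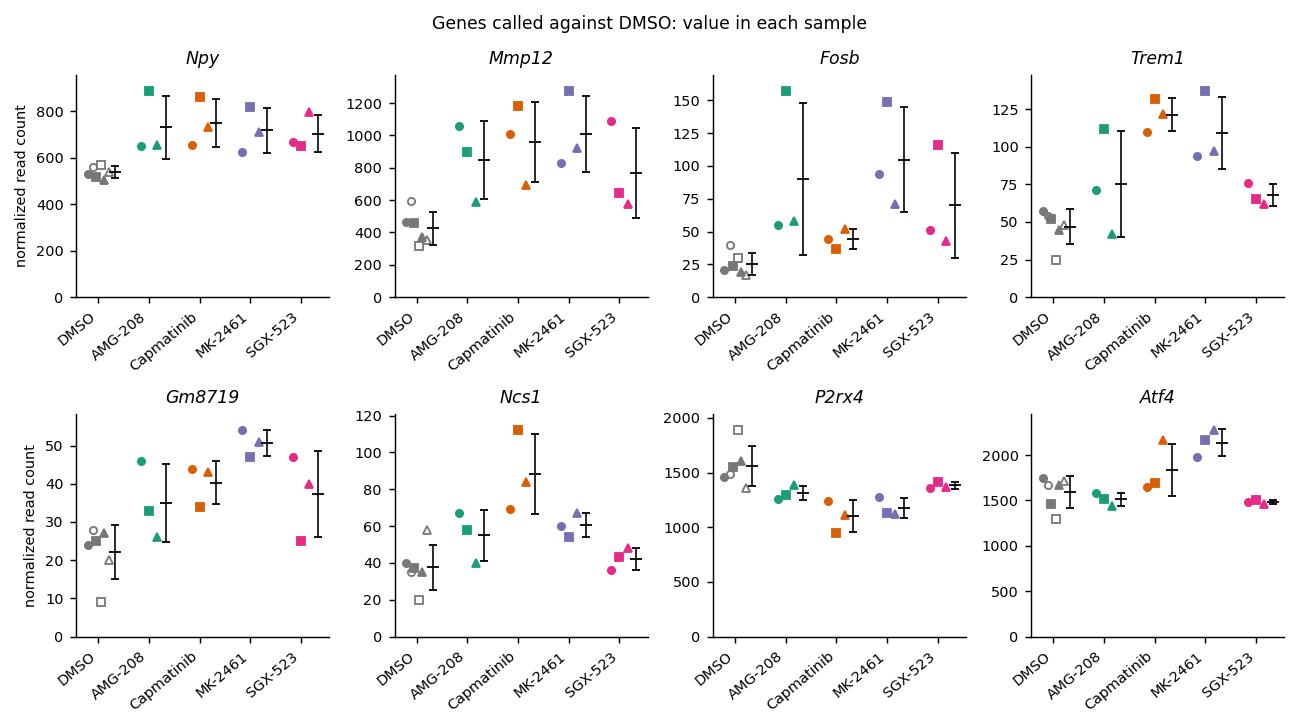
Normalized read count (y axis) of 8 genes called against DMSO, in each sample by treatment. Circles, squares and triangles are replicate numbers 1, 2 and 3, open grey symbols are DMSO set 2, and the bar gives the mean ± SD. Npy is above all 6 DMSO samples in each of the 12 inhibitor samples, whereas Ncs1 and P2rx4 stand clear of DMSO with Capmatinib and Atf4 with MK-2461.

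MK-2461 changed 3 genes past the threshold. In the blocked fit 24 were called, and 5 of these, Atf4 among them, were on the ATF4 and unfolded protein response list. The activity of ATF4 was not measured. ATF4 is a transcription factor that is made when amino acids run short or proteins misfold, and it switches on genes for amino acid synthesis and uptake and for tRNA charging. Promoters of Asns and Trib3, classical targets of ATF4, are shown because these were the list members called for MK-2461 with the block both against DMSO and against the other CKIs, though neither was called without the block. The sequences are from RefSeq (GRCm38.p6, the same assembly as mm10), each with 250 bases before and 50 after the start, 5′ to 3′ on the strand of the gene. Capitals mark the letters TGATGNAA (N, any base), the core of the C/EBP-ATF response element, or their reverse complement. In Asns (chr6:7693160-7693459, minus strand) the match begins 23 bases before the start, and in Trib3 (chr2:152344011-152344310, minus strand) a match on the opposite strand begins 14 bases after it.
Asns: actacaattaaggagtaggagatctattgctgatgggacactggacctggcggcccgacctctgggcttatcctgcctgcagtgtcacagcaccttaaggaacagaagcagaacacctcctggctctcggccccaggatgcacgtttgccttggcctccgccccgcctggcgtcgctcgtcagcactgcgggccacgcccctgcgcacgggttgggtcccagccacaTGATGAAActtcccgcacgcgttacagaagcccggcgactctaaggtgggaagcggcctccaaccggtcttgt
Trib3: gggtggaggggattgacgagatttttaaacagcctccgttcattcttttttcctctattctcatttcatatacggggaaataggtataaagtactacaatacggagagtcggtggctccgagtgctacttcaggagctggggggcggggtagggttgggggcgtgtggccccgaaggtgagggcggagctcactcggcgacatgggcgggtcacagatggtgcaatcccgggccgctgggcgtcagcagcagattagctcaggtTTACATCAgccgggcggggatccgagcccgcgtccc
Of 32 listed ATF4 and unfolded protein response genes with a promoter sequence, 9 (28.1%) held a match on either strand, against 4.51% of all 27025 genes. An excess was foreseeable in a list of genes linked to ATF4, and no value of MK-2461 enters this share. Aars, called against the other CKIs with the block, held a match. So did Chac1, Gars, Herpud1, Nupr1, Slc7a11 and Vldlr, none of them called for MK-2461 against DMSO or the other CKIs. No match was found in these windows of Atf4, Psat1 and Slc3a2, the other list members called for MK-2461 against DMSO with the block.

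Atf4 (chr15:80255184-80257545, plus strand) was 1753, 1462, 1667, 1675, 1293 and 1716 in DMSO and 1974, 2166 and 2273 with MK-2461. The groups did not overlap, and Atf4 rose by a log2 fold change of 0.43 ± 0.09 (adjusted p = 0.0488). Asns (chr6:7675165-7693209, minus strand), for asparagine synthetase, was 217, 318 and 442 in DMSO set 1, 218, 334 and 340 in DMSO set 2, and 379, 570 and 709 with MK-2461. In each of these 3 sets the sample numbered 1 was the lowest and the sample numbered 3 the highest. The groups overlapped, although each MK-2461 sample was above both DMSO samples of its number. The log2 difference within a number was 0.80, 0.80 and 0.87. Asns was at 0.82 ± 0.23 without the block (adjusted p = 0.167) and was called with it (adjusted p = 3.53e-09).

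Trib3 (chr2:152337425-152344060, minus strand), for a pseudokinase that restrains ATF4 and AKT, was 36, 56, 93, 35, 60 and 75 in DMSO and 125, 136 and 167 with MK-2461. All MK-2461 samples were above all DMSO samples, and the log2 fold change of 1.33 ± 0.34 had an adjusted p of 0.118 without the block and 0.000755 with it. Psat1, for an enzyme of serine synthesis, rose by 0.53 in the blocked fit (adjusted p = 0.00334), and Slc3a2, for the heavy chain of amino acid exchangers, by 0.56 (adjusted p = 0.0301). Slc3a2 was 6112, 6536 and 5781 with MK-2461 and between 3140 and 4938 in DMSO. Without the second sample of DMSO set 2, the blocked adjusted p was 4.95e-09 for Asns, 0.00285 for Trib3, 0.0362 for Atf4, 0.0362 for Psat1 and 0.227 for Slc3a2.

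Of the 35 tested genes on the ATF4 and unfolded protein response list, 1 was called for MK-2461 without the block and 5 with it, against 24 called of all genes with it (0.189%). At an unadjusted p under 0.05, 12 of the 35 were higher and 0 lower with MK-2461, beside 14% of all genes in either direction, and the list median was 0.228 beside 0.094 for all genes. The counts were 0 higher and 0 lower for AMG-208 (median 0.018), 8 and 1 for Capmatinib (0.075), and 3 and 1 for SGX-523 (-0.049). Of all genes, 2.83%, 19.7% and 3.93% were at that level for these 3, and the all-gene medians were 0.032, 0.143 and 0.067. The endoplasmic reticulum chaperone genes Hspa5, for BiP, and Hsp90b1 were at -0.09 ± 0.10 and -0.11 ± 0.15 with MK-2461, and Xbp1, for a transcription factor of the unfolded protein response, was at -0.37 ± 0.23, none of them called. Ddit3, for the stress factor CHOP, was 37.0 ± 19.9 (SD, n = 6) in DMSO and 46.3 ± 7.51 (SD, n = 3) with MK-2461.

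**Figure D3:**
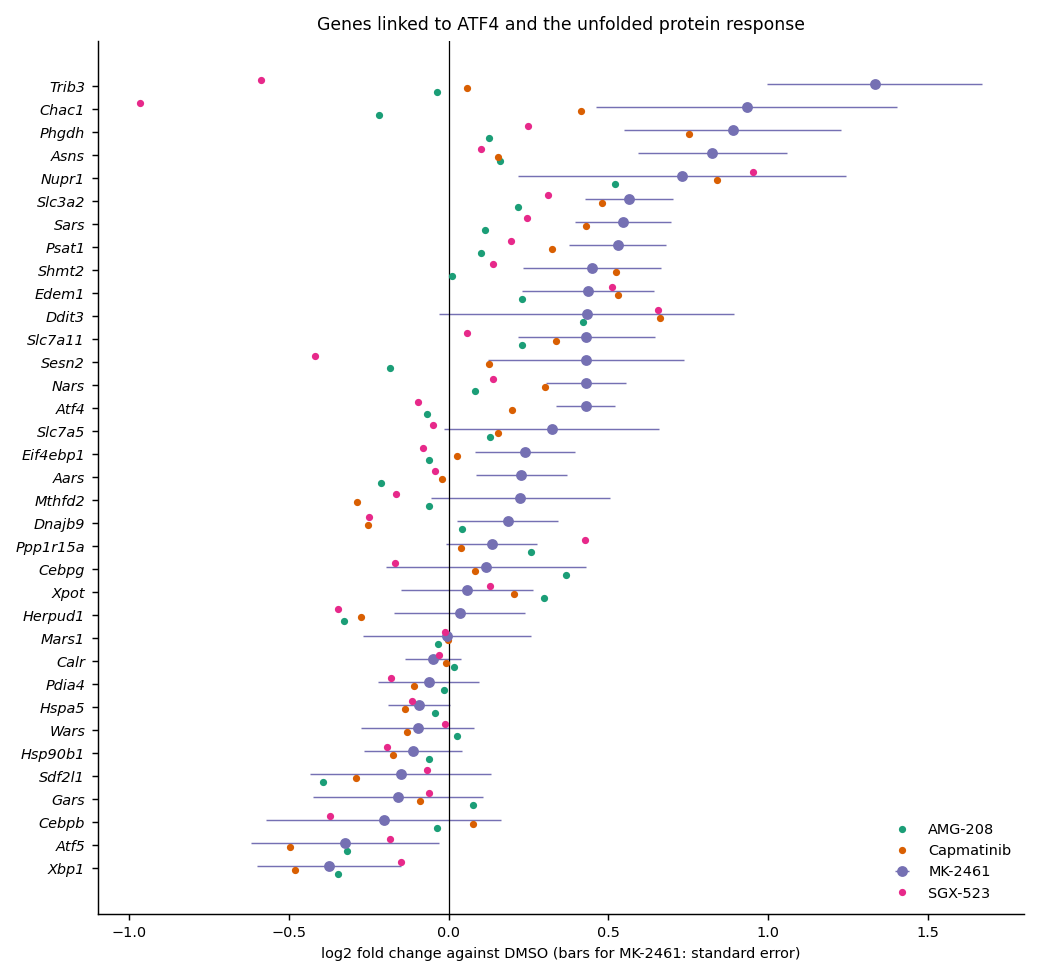
Log2 fold change against DMSO (x axis) of the 35 tested genes linked to ATF4 and the unfolded protein response, for each inhibitor. Large points with bars are MK-2461 with its SE, and small points the other inhibitors. With MK-2461, Trib3 (1.33) and Asns (0.82) are among the highest and Xbp1 (-0.37) is the lowest.

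Against the other 54 CKIs, MK-2461 had 0 called genes without the block (0%) and 400 at an unadjusted p under 0.05. With the block 4 genes were called (0.0315%): Asns (0.67 ± 0.19 SE without the block, adjusted p = 4.91e-09 with it), Trib3 (1.13, 0.00033), Aars, for alanyl-tRNA synthetase (0.32, 0.0109), and Aqp9, for a channel for water and glycerol (1.32, 0.0325). Each of the 4 was also called with the mitochondrial share in the blocked fit. These p-values rest on the spread between replicates and not on that between CKIs. Aqp9 was between 15 and 20 in DMSO and 37, 42 and 60 with MK-2461, whereas it was between 14 and 29 with the other inhibitors. The mean of Asns was higher than with MK-2461 (553) in 2 of the other 54 CKIs, that of Trib3 in 3, that of Aars in 1 and that of Aqp9 in 1. Asns means over the 54 ran from 256 to 1175 with a median of 323. Atf4 itself was 0.20 ± 0.08 above the other CKIs and was not called.

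**Figure D4:**
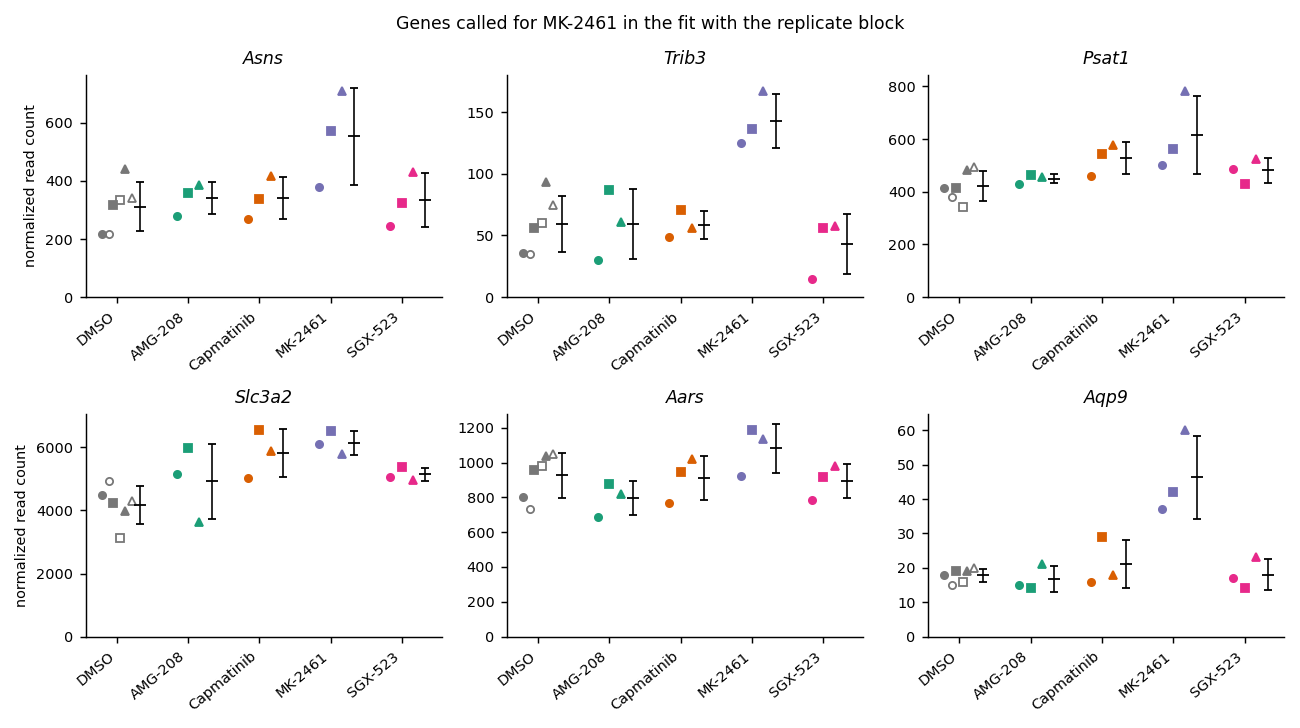
Normalized read count (y axis) of 6 genes called for MK-2461 with the replicate block, against DMSO or against the other CKIs, in each sample by treatment. Circles, squares and triangles are replicate numbers 1, 2 and 3, open grey symbols are DMSO set 2, and the bar gives the mean ± SD. The MK-2461 samples of Asns (379, 570 and 709) lie above the DMSO samples of the same number.

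The other genes called for MK-2461 against DMSO were Fosb and Gm8719. Fosb was 21, 24, 19, 40, 30 and 17 in DMSO and 94, 149 and 71 with MK-2461, without overlap, and rose by a log2 fold change of 2.01 ± 0.44 (adjusted p = 0.0488). Gm8719 is a pseudogene model (chr6:128472652-128473410, minus strand) that lies within the noncoding gene Gm10069 (chr6:128438757-128503281, plus strand), and the values of the pair were nearly the same in each sample. Whether counting used strand is not given in the sources used here, so reads of the pair cannot be told apart. Gm8719 was between 9 and 28 in DMSO and 54, 47 and 51 with MK-2461 (1.23 ± 0.26, adjusted p = 0.0488). With the block, Cxcr4 (1.82), Mmp12 (1.25), Trem1 (1.23) and Tsc22d3 (0.92), for a leucine zipper protein induced by glucocorticoids and FOXO factors, also rose. None of these 4 was called in the blocked fit without the second sample of DMSO set 2, whereas Fosb was (adjusted p = 0.0107). Scaling the values again by the median of ratios moved the median of all genes by 0.101 for MK-2461 and left it with 0 called genes without the block. The count without the block was also 0 when any 1 of the 3 MK-2461 samples, the second sample of DMSO set 1, or the second or the third of set 2 was left out, and 14 without the first of set 2.

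With their 4 group means averaged, the inhibitors had 6 called genes against DMSO, all higher. The SE of this contrast covers the spread between replicates and not that between the 4 compounds. Npy (chr6:49822710-49829507, plus strand), for neuropeptide Y, was 530, 517 and 502 in DMSO set 1 and 561, 569 and 540 in set 2. It was 650, 886 and 652 with AMG-208, 654, 860 and 731 with Capmatinib, 622, 818 and 711 with MK-2461, and 665, 650 and 795 with SGX-523. All 12 inhibitor samples lay above all 6 DMSO samples, and Npy rose by a log2 fold change of 0.42 ± 0.08 (adjusted p = 0.00833).

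Mmp12 (chr9:7344397-7360461, plus strand) was between 318 and 594 in DMSO and had a median of 910.5 in the 12 inhibitor samples (lowest 574, highest 1274). Of the 12, 10 were above all DMSO samples, and the rise was 1.05 ± 0.22 (adjusted p = 0.0152). Fosb (chr7:19302696-19310045, minus strand) was above all DMSO samples in 11 of 12, at 55, 157 and 58 with AMG-208, 44, 37 and 52 with Capmatinib, and 51, 116 and 43 with SGX-523. It rose by 1.47 ± 0.31 (adjusted p = 0.0152). Its second sample was the highest with AMG-208, MK-2461 and SGX-523 but not with Capmatinib. Trem1 (chr17:48232739-48246924, plus strand) was 71, 112 and 42 with AMG-208 and 76, 65 and 62 with SGX-523, and rose by 0.95 ± 0.20 over the 4 (adjusted p = 0.0152). Gm8719 and Gm10069 rose by 0.89 each (adjusted p = 0.0152). Without the second sample of DMSO set 2, Npy alone was called for the 4 together (0.44, adjusted p = 0.0149). Without the first sample of that set 205 genes were called, and without the first and the third of set 1 the counts were 12 and 3. With the samples numbered 2, or those numbered 3, left out of every group, they were 0 and 1.

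These genes were also compared with the other CKIs. Against the other 54, the log2 difference of the 4 together was 0.02 ± 0.05 for Npy, 0.26 ± 0.13 for Mmp12, 0.45 ± 0.19 for Fosb and 0.15 ± 0.12 for Trem1, with limma adjusted p between 0.934 and 1. The mean of Npy was above the DMSO mean in 53 of the other 54 CKIs, that of Mmp12 in 48, that of Fosb in 51, and that of Trem1 in 54. Higher means than those of the 4 together (724.5, 896, 77.25 and 93.3) were found for Npy in 21 of the 54, for Mmp12 in 19, for Fosb in 14 and for Trem1 in 17. No gene was called for any of the 4 or for the 4 together in this comparison (0% each), while 268 (AMG-208), 325 (Capmatinib), 400 (MK-2461), 678 (SGX-523) and 570 (together) had an unadjusted p under 0.05. The lowest adjusted p were 0.0722 for SGX-523 and 0.149 for the 4 together.

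**Figure D5:**
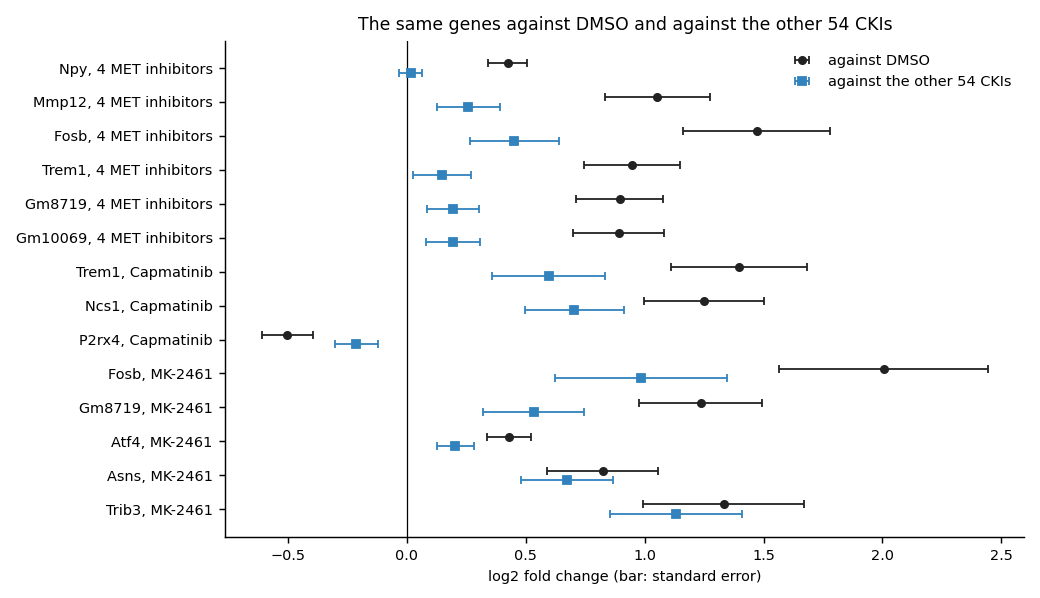
Log2 fold change with its SE (x axis) of genes called against DMSO, and of Asns and Trib3, for the inhibitors named on the left, against DMSO (black circles) and against the other 54 CKIs (blue squares). Npy is at 0.42 against DMSO and 0.02 against the other CKIs, whereas Asns and Trib3 with MK-2461 are at 0.82 and 0.67, and at 1.33 and 1.13.

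AMG-208 had no called gene against the other CKIs with the block either. Its smallest p belonged to Siah2, for a ubiquitin ligase, which was 8 in each of the 3 AMG-208 samples and between 9 and 23 in DMSO (-1.24 ± 0.28 from the other CKIs, adjusted p = 0.228). All 54 had a higher mean.

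SGX-523 had 10 called genes against the other 54 CKIs in the blocked fit (0.0787%), 4 higher and 6 lower. Mmp14, for a membrane metalloprotease, was 389, 310 and 317 and differed by 0.77 (adjusted p = 0.0147), and its mean of 339 was above those of all 54. Ogfr, the opioid growth factor receptor gene, differed by 1.38, Mxd1, a partner of MAX, by 0.60, and Filip1l by 0.97. Atf4 was 1485, 1505 and 1457 with SGX-523, -0.32 from the other CKIs (adjusted p = 0.0147), and Chac1, a glutathione-degrading target of ATF4 with values of 0, 12 and 6, was at -1.29 (adjusted p = 0.0452). Its values were low, and the difference without the block was -0.48 with a pseudocount of 10, -1.58 with a pseudocount of 0.5, and -0.21 without the first SGX-523 sample. Atf4 and Ogfr in DMSO (1594 ± 179 and 859 ± 266, SD, n = 6) were close to SGX-523 (1482 ± 24.1 and 1064 ± 232, SD, n = 3), with log2 differences of -0.10 ± 0.09 and 0.35 ± 0.38. For the 4 together, Aldh1b1, for a mitochondrial aldehyde dehydrogenase, and Aen, for a nuclease induced by p53, were called with the block (0.0157%), at 0.28 and 0.20 above the other CKIs (adjusted p = 0.0331 each).

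Of 36 tested LPS-induced cytokine and chemokine genes, 0 were called for any inhibitor without the block. Tnf was 7751 ± 829 (SD, n = 6) in DMSO and between 6509 and 13764 in the inhibitor samples, and Il6 was 533 ± 161 and between 309 and 1322. With the block, 3 of the 36 rose for the 4 together: Ccl7 (0.82), Ccl2 (0.35), which attract monocytes, and Ifnb1 (0.96), for interferon-beta, beside 265 called of all genes (2.08%), 227 higher and 38 lower. Of the 265, 11 were called without the second sample of DMSO set 2, and none of these 3 was among them. Ccl2 was 7693 ± 514 in DMSO and between 8165 and 12139 in the inhibitor samples, 11 of which were above all DMSO samples. Of 71 interferon-stimulated genes, 29 TLR4-MyD88 signalling genes and 19 genes for NF-kB subunits and feedback, 0 were called in any comparison with DMSO, with or without the block. List medians for AMG-208, Capmatinib, MK-2461 and SGX-523 were 0.057, 0.018, 0.016 and 0.301 for the interferon-stimulated genes, 0.109, 0.234, 0.118 and 0.291 for the cytokines and chemokines, -0.036, -0.02, 0.027 and 0.035 for TLR4-MyD88 signalling, and -0.118, -0.064, -0.172 and 0.014 for the NF-kB list. With SGX-523, 66 of the 71 interferon-stimulated genes were above 0 against DMSO, with 0 at an unadjusted p under 0.05, beside 60.9% above 0 and a median of 0.067 over all genes. Against the other CKIs, 70 of the 71 were above 0, with 8 higher and 0 lower at that level and a median of 0.32, beside 47.2% above 0 and a median of -0.011 over all genes. The samples varied widely: the sum of the 71 genes ran from 252316 to 474147 with SGX-523 and from 190817 to 387539 in DMSO.

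Other lists held few calls. Among 36 tested ERK-responsive genes, Fosb was called for MK-2461 and for the 4 together, and with the block Plau (0.84), Plaur (0.58), the urokinase receptor gene, and Fosb rose for the 4 together. Of 35 genes for migration and invasion, Mmp12 was called for the 4 together, and with the block Cxcr4 (1.39), Plau and Plaur were added. Of 25 FOXO-linked genes, 0 were called without the block, and Foxo4 (1.10) and Tsc22d3 (0.59) rose with it for the 4 together. The blocked fit of the 4 together also called Txnrd1 (-0.21) of 27 NRF2 and AHR targets, Cyp51 (-0.33) of 34 sterol and fatty acid genes, Hspe1 (0.25) of 18 chaperone genes, Aldoa (0.16), Eno1 (0.21) and Ldha (0.22) of 25 glycolysis genes, Tyms (0.34) and Gins2 (0.44) of 47 cell cycle genes, and Asns (0.31), Slc3a2 (0.39) and Psat1 (0.29) of the ATF4 list, beside 2.08% called of all genes. Of the genes named in this paragraph for the blocked fit of the 4 together, Fosb, Mmp12, Foxo4 and Asns were also called without the second sample of DMSO set 2, and the rest were not. The mean rise of Asns came mostly from MK-2461. Its log2 differences within a replicate number were 0.80 to 0.87 with MK-2461 and -0.01 to 0.35 with the other inhibitors. None of 41 lysosome and autophagy genes and none of 29 macrophage identity genes was called in any of the comparisons with DMSO, with or without the block. For the 4 together the macrophage identity median was 0.28 beside 0.081 for all genes. At an unadjusted p under 0.05, 5 of the 29 were higher and 1 lower, beside 19.1% of all genes in either direction.

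Some measures of sample composition were higher on average with the inhibitors than in DMSO. Of the mitochondrial and ribosomal shares, only the ribosomal passed 0.05 for the 4 together in the exact test over all samples. Mitochondrially encoded transcripts made up 0.597% ± 0.264 (SD, n = 6) of the total in DMSO (0.301% to 1.05%) and 0.926% ± 0.344 (SD, n = 12) with the 4 inhibitors (0.519% to 1.83%), a difference of 0.329 percentage points (exact permutation test, two-sided, p = 0.0514). The exact tests of the 4 together, here and below, pooled 12 samples of different compounds. Their p-values treat these as 1 group and do not cover the spread between compounds. With samples exchanged only within a replicate number, a test chosen after seeing the data, the exact p was 0.0127, although the numbers of AMG-208 did not pair with those of DMSO. Both DMSO samples numbered 2 and both numbered 3 lay below all 4 inhibitor samples of their number, and among those numbered 1 MK-2461 (0.865%) lay between the DMSO samples. Singly, the means were 0.750% for AMG-208, 1.00% for Capmatinib, 0.879% for MK-2461 and 1.07% for SGX-523, with exact p between 0.0714 and 0.50. Within numbers, where the smallest possible p was 0.037, the exact p was 0.037 for Capmatinib, 0.0741 for MK-2461 and 0.037 for SGX-523, not adjusted over the inhibitors. Group means of the other 54 CKIs ran from 0.396% to 1.91% with a median of 0.828%. All 13 mitochondrial genes had a positive log2 fold change for the 4 together (median 0.86), none called. Ribosomal protein transcripts were 2.33% ± 0.163 in DMSO and 2.67% ± 0.229 with the inhibitors (exact p = 0.00657, and 0.0127 within numbers). Of 82 tested, 0 were called without the block and 6 rose with it, beside 2.08% called of all genes, and none of the 6 was called in the blocked fit without the second sample of DMSO set 2. The median of the 82 was 0.283 beside 0.081 for all genes, and against the other CKIs it was -0.039 beside 0.013. Group means of the ribosomal protein share in the other 54 CKIs ran from 2.17% to 3.44%, with a median of 2.75%. Summed neutrophil markers were between 555 and 1586 in DMSO and between 588 and 2787 in the inhibitor samples, with a median log2 fold change of 0.626 over 10 tested genes and 0 called. Markers of dendritic cells (127 to 188 in DMSO, 135 to 217 with inhibitors), of fibroblasts, epithelium and endothelium (116 to 650 and 175 to 393), and of mast cells, basophils and erythroid cells (10 to 25 and 10 to 34) were low, and none was called. The part of these shifts in the rises against DMSO was not tested beyond a blocked fit that also held the mitochondrial share, which called 14 genes for the 4 together, all among the 265, and 25 for MK-2461, 23 of them among its 24.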

How the data were processed

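RNA-seq libraries were made from LPS-stimulated mouse BMDMs. The authors' processing notes name TopHat2 2.1.1, bedtools 2.29.2, R 3.6.2 and DESeq2 and the mm10 build. The deposited table holds one score per gene and sample, a normalized exonic read count rounded by the authors. Whole reads could not be recovered from it, so sequencing depth is unknown, no count model was fitted, and errors cover the spread between samples only. The study describes the samples as independent biological replicates.

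From these values, log2(value + 1) was fitted with limma (3.58.1) in R (4.3.3), with a variance trend and all 59 groups, over 12714 of 45070 genes with a mean of at least 10. The DMSO sets were pooled. Adjusted p-values are Benjamini-Hochberg over all genes, called under 0.05. The fit was tested on simulated data. Noise was drawn separately for each gene and sample, without an effect of the replicate number and without a deviating DMSO sample. The shares below hold for such data and may differ for the real samples. With changes simulated for Capmatinib, it called 16.4% of genes changed by 0.5 on the log2 scale and 74.6% of those changed by 1 against DMSO. With changes simulated for all 4, the shares called for the 4 together were 55.2% and 88.1%. Unchanged genes called numbered 10 and 13. Of genes changed by 2 for Capmatinib, 90.9% were called. A gene not called for a single inhibitor may thus still have changed, most readily by a small amount but also by 1 or more. Members and gene lists were chosen with earlier results of these data known. Listed genes, the largest called changes, and, where there was no call, the 5 smallest p-values could be named. Genes called only with the block and on no list were named after their values were seen.

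Deviations from the group mean correlated between same-numbered inhibitor and DMSO samples at 0.21 or more for Capmatinib, 0.31 for MK-2461, 0.29 for SGX-523 and 0.37 for the 4 together, so these numbers were taken as pairs. For AMG-208 the lowest was 0.00, and they were not. Against the other CKIs the lowest was 0.23. Shares of mitochondrial and ribosomal transcripts were compared by two-sided exact permutation tests over all samples and, chosen after seeing the data, within replicate numbers.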

Additional observations from a re-analysis of the deposited data

Results flagged for a closer look

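Gm10069, a noncoding gene called for the 4 inhibitors together, was 7.0 in the second sample of DMSO set 2 and between 19 and 26 in the other 5 DMSO samples, far enough below them to stand apart (gap over range 0.632). Of 20 values checked in this way 1 stood apart, and chance alone gives about 1 in 20. Without that sample Gm10069 was at 0.62 (limma adjusted p = 0.448).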

How the results depend on the processing

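Values are counts of called genes. With a pseudocount of 10, MK-2461 had 1 against the other CKIs. With no filter on low values, the counts against DMSO were 89 (AMG-208), 155 (Capmatinib), 117 (MK-2461) and 133 (SGX-523), and against the other CKIs 132, 180, 167, 206 and, for the 4 together, 19. Of those against DMSO, 89, 149, 116 and 133 were higher. This setting adds genes with a mean under 10, which are near the floor of the values. MK-2461 against DMSO had 0 with a filter at a mean of 50, scaled again by the median of ratios, or with no variance trend.

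With the replicate block the counts against DMSO were 99 (Capmatinib), 24 (MK-2461) and 265 (together), and against the other CKIs 4 (MK-2461), 10 (SGX-523) and 2 (together). AMG-208, whose numbers did not pair with DMSO, had 0 with the block. Adding the mitochondrial share to the block gave 11, 25 and 14 against DMSO, and 1 (AMG-208), 6 (MK-2461), 43 (SGX-523) and 12 (together) against the other CKIs. The block without the second sample of DMSO set 2, chosen after seeing the data, gave 5, 6 and 11.

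DMSO set 1 alone gave 0 for Capmatinib, 0 for MK-2461 and 0 together. DMSO set 2 alone gave 0 for Capmatinib and 2 together. With only DMSO and the 4 inhibitors in the fit the counts were 0, 0 and 0. The 4 together had 3 without Capmatinib, 1 without MK-2461 and 29 without SGX-523. Leaving out 1 sample or number gave 0 to 3 for Capmatinib, 0 to 14 for MK-2461 and 0 to 205 together against DMSO, and 0 to 1 for AMG-208, 0 to 3 for MK-2461, 0 to 1 for SGX-523 and 0 to 15 together against the other CKIs. Differences in mitochondrial share passed 0.05 with the replicate block (exact test within numbers, also chosen after seeing the data) for Capmatinib (0.405), SGX-523 (0.476) and the 4 together (0.329 percentage points), and not without it. No result reversed. Causes were not tested, and depth is unknown.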
